A study of Homo sapiens with 12 samples.

Results

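The metallothionein genes MT1E, MT1F, MT1G, MT1H, MT1M, MT1X and MT2A, the zinc exporter gene SLC30A1 and the transcription factor gene MTF1 were followed through 12 libraries of 2 human germ cell tumour lines. These 9 genes were taken by name from a table of 63241 genes, each name was found once, and all 9 passed the filter on low counts. The line 2102 EP is labelled embryonal carcinoma and TCam-2 is labelled seminoma, and the genotype of both is given as WT. Each line was exposed for 24 h to 15 µM I-BRD9, a ligand of the bromodomain of BRD9, or to its solvent DMSO, which gave 4 groups of 3 libraries called biological replicates. BRD9 is a subunit of the non-canonical BAF chromatin remodelling complex. 2102 EP was kept in DMEM and TCam-2 in RPMI, so that line and medium cannot be told apart. The libraries were made with a kit that primes at the polyadenylated 3′ end of transcripts. The series asks whether BRD9 inhibition could serve as a treatment of testicular germ cell tumours.

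Metallothioneins are small, cysteine-rich proteins that bind zinc and copper, buffer their free concentration and capture toxic metals such as cadmium. When zinc rises in the cell, the zinc finger protein MTF1 moves to the nucleus, binds metal response elements in the promoters of metallothionein genes and of SLC30A1, and raises their transcription, and the SLC30A1 protein then carries zinc out of the cell. In germ cell tumours metallothioneins have been studied for their binding of platinum drugs. MT1 and MT2 proteins are made in most tissues, MT3 mainly in brain and MT4 in stratified epithelia.

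The promoters of members that changed and of members that did not are shown first, since MTF1 acts through a short element in them. RefSeq promoter sequences (GRCh38.p14) were found for 5 of the 9 members (MT2A, MT1H, MT1X, SLC30A1 and MTF1), and not for MT1E, MT1F, MT1G and MT1M. Each line gives the 250 bases before the RefSeq start, 5′ to 3′ on the strand of the gene. Capitals mark matches to the core of the metal response element, searched on both strands as TGCACNC or TGCGCNC, so that a match on the opposite strand reads as its reverse complement. The windows are chr16:56608334-56608583 on the plus strand for MT2A, chr16:56669564-56669813 on the plus strand for MT1H, chr16:56682220-56682469 on the plus strand for MT1X and chr1:211579162-211579411 on the minus strand for SLC30A1.
MT2A: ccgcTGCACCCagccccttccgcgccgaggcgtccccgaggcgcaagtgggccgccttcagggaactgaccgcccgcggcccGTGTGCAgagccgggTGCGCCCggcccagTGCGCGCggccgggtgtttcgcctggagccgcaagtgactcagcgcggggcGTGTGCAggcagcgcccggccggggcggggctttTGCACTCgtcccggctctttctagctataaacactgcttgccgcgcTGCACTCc
MT1H: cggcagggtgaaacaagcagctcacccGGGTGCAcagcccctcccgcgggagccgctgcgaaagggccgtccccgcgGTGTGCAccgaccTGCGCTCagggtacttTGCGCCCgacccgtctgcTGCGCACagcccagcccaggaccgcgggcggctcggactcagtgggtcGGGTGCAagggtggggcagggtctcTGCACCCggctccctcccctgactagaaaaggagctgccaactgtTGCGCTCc
MT1X: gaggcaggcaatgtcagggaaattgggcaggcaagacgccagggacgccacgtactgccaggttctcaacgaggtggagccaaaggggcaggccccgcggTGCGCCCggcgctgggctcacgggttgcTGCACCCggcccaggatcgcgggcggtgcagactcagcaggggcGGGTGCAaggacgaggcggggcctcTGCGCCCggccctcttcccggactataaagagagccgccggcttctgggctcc
SLC30A1: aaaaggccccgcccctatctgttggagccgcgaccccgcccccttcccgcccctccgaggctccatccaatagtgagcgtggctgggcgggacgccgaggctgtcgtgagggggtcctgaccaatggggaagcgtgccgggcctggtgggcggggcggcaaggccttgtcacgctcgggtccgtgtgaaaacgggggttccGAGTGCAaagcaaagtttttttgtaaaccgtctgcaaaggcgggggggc
The MT1H window held 8 matches, that of MT2A 7, that of MT1X 4 and that of SLC30A1 1, and the MTF1 window held none. Matches did not overlap each other. Of 34786 promoter windows of this length 24.8% held at least 1 match, 0.368% at least 4 and 0.0316% at least 7. Counted back from the start, a match began at base −54 in MT2A and at base −53 in MT1H and MT1X, and MT2A and MT1H both held a further match that began at base −8. A match of letters is not a measured binding site. Along the strand of the gene, the RefSeq start of MT2A lies 385 bases after the GENCODE start and that of SLC30A1 419 bases before it. Relative to the GENCODE starts, the windows of these genes are thus at unlike positions, and their numbers of matches are not a like comparison. The MT1H and MT1X transcripts fell with I-BRD9 in both lines and those of MT2A and SLC30A1 were called in neither, as the values that follow show. A link between the matches and the response was not tested, and promoters were at hand for 5 of the 9 members only.

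The libraries held 7290335 to 10053366 estimated counts, and 3 counts corresponded to 0.297 to 0.409 CPM (counts scaled to a common library size, with TMM factors). SOX2, an embryonal carcinoma marker, stood at 454 to 492 CPM in 2102 EP with DMSO and at 15.6 to 19.7 in TCam-2, and SOX17, a seminoma marker, at 0 to 0.118 and 185 to 198 CPM, so each line had the marker of its label. With I-BRD9, SOX2 stood at 251 to 261 CPM in 2102 EP and SOX17 at 43 to 48.9 in TCam-2. Among 6 marker genes of liver and kidney tubule, tissues rich in metallothionein, ALB, TTR and SERPINA1 had no count in any group, and the list summed to 0.767 to 1.67 CPM in 2102 EP and to 22.4 to 30.5 in TCam-2. Blood and immune markers summed to at most 3.71 CPM in any library, yolk sac and endoderm markers to at most 12.5 and testis somatic markers to at most 12.3. The 6 fibroblast and stroma markers summed to 168 to 179 CPM in TCam-2 with DMSO (DCN at 0) and to 87.9 to 135 with I-BRD9 (all 6 with a count), without overlap, and to 17.6 to 23.4 and 23.2 to 25.2 CPM in 2102 EP, where DCN and LUM had no count. The 8 embryonal carcinoma markers summed to 2150 to 2260 CPM with DMSO and 613 to 685 with I-BRD9 in 2102 EP, and to 1300 to 1380 and 395 to 411 in TCam-2. The 8 seminoma markers summed to 267 to 360 and 188 to 199 CPM in 2102 EP, and to 1520 to 2030 and 1250 to 1400 in TCam-2. The embryonal carcinoma and seminoma sums of both lines and the fibroblast sum of TCam-2 were thus lower with I-BRD9, as were the MT1 members, and their part in the results was not tested. Replicate 1 of 2102 EP with I-BRD9 stood apart from its group. Over 8316 genes its median distance from the group mean was 0.13 on the log2 scale, against 0.07 to 0.10 in the other 11 libraries, and 7 of the 9 members lay below the group mean in it, as they also did in 2 other libraries. Results that rest on it are given with and without it.

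Reads of near-identical copies are divided between genes by the quantification, which leaves estimated counts that are not whole. A count more than 0.01 from a whole number was found in all 12 libraries for MT1G and MT1H, in 11 for MT2A, in 10 for MT1M, in 2 each for MT1E, MT1X and MTF1, and in none for MT1F and SLC30A1. Of all genes tested 5.14% had such counts in all 12 libraries and 70.7% in none. The last 150 bases of the annotated transcripts were most alike for MT1E and MT1M (87.7% identity), for MT1G and MT1H (81.1%) and for MT1F and MT1H (80.3%). The values of MT1G, MT1H, MT1M and MT2A are therefore uncertain as single genes, though not to the same degree. In most libraries the fractions of MT1G and MT1H made up a whole number, as with 3933.905 and 84.095 counts in DMSO replicate 1 of 2102 EP. MT1G had at least 1493.77 counts in a library and MT1H at most 273.946. MT1F, with whole counts in every library, is the metallothionein member least touched by the division. MT1A, a metallothionein gene that is no member, had such counts in 0 of 12 libraries as well. MT1X overlaps an annotated processed transcript (AC026461.1) on its own strand, so that reads of the shared stretch cannot be told apart by strand. MTF1 overlaps a pseudogene (AL929472.4) on the opposite strand, and since no use of strand is stated, those reads cannot be told apart either.

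**Figure D1:**
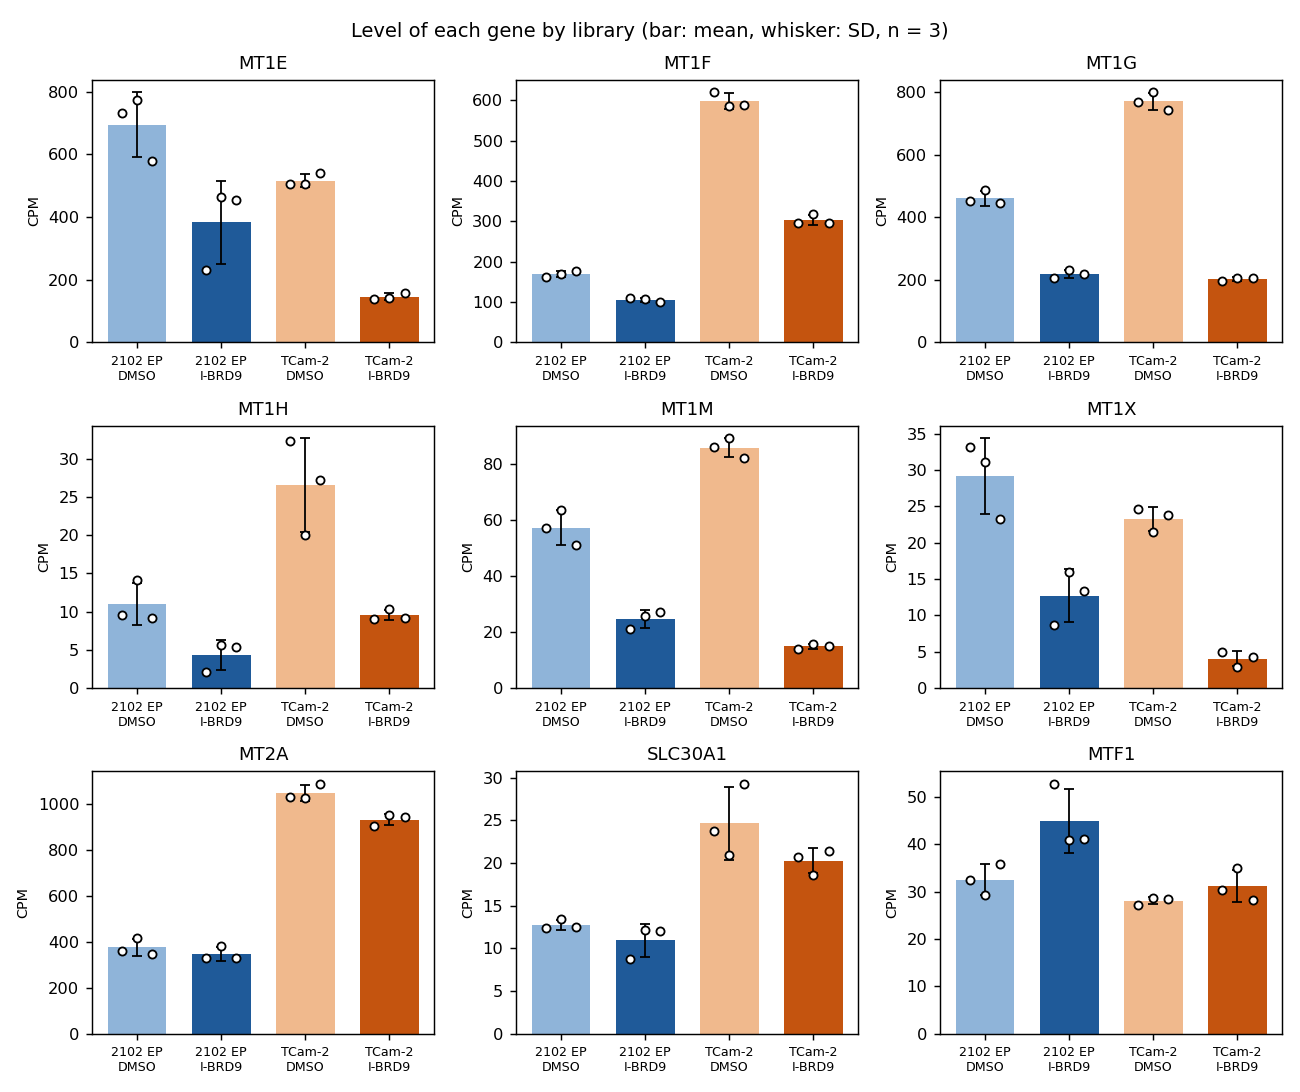
CPM of the 9 genes by group, with open points for single libraries, bars for the mean and whiskers for the SD (n = 3). The 6 MT1 genes are lower with I-BRD9 in both lines, with no overlap between libraries. Of all genes tested, 46.3% in 2102 EP and 45.7% in TCam-2 had groups that did not overlap. MT2A stays between 329 and 417 CPM in 2102 EP and between 903 and 1088 CPM in TCam-2.

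In TCam-2 all 6 MT1 members fell after I-BRD9, and MT2A, SLC30A1 and MTF1 did not pass the threshold. MT1M (ENSG00000205364, chromosome 16, 56632233 to 56633986, plus strand, GRCh38) was at 86.2, 89.4 and 82.4 CPM in DMSO replicates 1 to 3 and at 14.0, 15.9 and 15.1 CPM in the I-BRD9 replicates. MT1X (ENSG00000187193, chromosome 16, 56682424 to 56684196, plus strand) went from 24.7, 21.4 and 23.8 CPM to 4.94, 2.88 and 4.29. Every I-BRD9 library was thus far below every DMSO library for both genes. MT1M fell 5.74-fold (log2 fold change −2.52 ± 0.12, SE, edgeR adjusted p = 1.53e-13) and MT1X 5.70-fold (−2.51 ± 0.22, adjusted p = 1.25e-08). Only 1.77% of the tested genes had a lower fold change than MT1M.

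MT1G (ENSG00000125144, chromosome 16, 56666731 to 56668065, minus strand) stood at 768, 799 and 744 CPM in the DMSO libraries of TCam-2 and at 195, 205 and 206 in the I-BRD9 libraries. MT1E (ENSG00000169715, chromosome 16, 56625475 to 56627112, plus strand) went from 504, 504 and 541 CPM to 138, 141 and 158. The groups lay far apart for these abundant transcripts too. MT1G fell 3.82-fold (−1.93 ± 0.08, edgeR adjusted p = 1.19e-14) and MT1E 3.54-fold (−1.82 ± 0.25, adjusted p = 0.000514). MT1F (ENSG00000198417, chromosome 16, 56657694 to 56660698, plus strand), whose counts were whole, fell least of the MT1 members. It went from 620.4, 586 and 589 CPM to 296, 317 and 296 (−0.98 ± 0.07, adjusted p = 4.23e-10), a 1.97-fold fall. MT1H (ENSG00000205358, chromosome 16, 56669814 to 56671129, plus strand) fell from 32.3, 20.1 and 27.3 CPM to 9.10, 10.3 and 9.16 (−1.48 ± 0.25, adjusted p = 2e-04). Its DMSO libraries were spread more widely (SD 6.17 CPM) than its I-BRD9 libraries (SD 0.694).

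The same 6 MT1 genes fell in 2102 EP, with fold changes from 1.61 to 2.47. MT1M went from 57.4, 63.5 and 51.0 CPM to 21.1, 25.7 and 27.3 (−1.21 ± 0.11, edgeR adjusted p = 1.53e-08). MT1G went from 450.0, 486 and 444 CPM to 204, 230.0 and 217 (−1.08 ± 0.08, adjusted p = 1.81e-10). MT1F went from 163, 168 and 177 CPM to 109, 108 and 98.6 (−0.69 ± 0.07). These 3 genes had replicates close to each other in both groups, and the groups did not overlap.

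MT1E, MT1X and MT1H were less even in 2102 EP. MT1E was at 732, 775 and 578 CPM in the DMSO libraries and at 231, 464 and 455 in the I-BRD9 libraries, so that the I-BRD9 library of replicate 1 was far below the other two. Its fall (−0.86 ± 0.24, edgeR adjusted p = 0.0219) was −0.58 (adjusted p = 4.29e-05) without that library, a smaller change with a smaller spread. The call of MT1E was lost without DMSO replicate 1 (adjusted p = 0.0698) or DMSO replicate 2 (0.0839), when low counts were kept (0.055) and when the 6 libraries of 2102 EP were fitted alone (0.118). MT1X went from 33.2, 31.1 and 23.3 CPM to 8.73, 15.9 and 13.4. MT1H went from 9.61, 14.1 and 9.20 CPM to 2.05, 5.61 and 5.35. Replicate 1 was the lowest I-BRD9 library for both. Without it the log2 fold change of MT1X was −0.97 (−1.19 ± 0.19 with it) and that of MT1H −0.98 (−1.31 ± 0.28 with it), and both kept an adjusted p under the threshold. What sets that library apart was not tested.

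Counted over the 9 members, 6 fell and 1 rose in 2102 EP, where 36.8% of the 15614 genes tested were called (18.6% lower and 18.2% higher). In TCam-2 6 members fell and none rose, and 31.8% of all genes were called (16.5% lower and 15.3% higher). The median log2 fold change of the 7 metallothionein genes was −1.08 in 2102 EP and −1.82 in TCam-2, and that of all genes tested was 0.00 and 0.01. The libraries of the groups did not overlap for 8 members in 2102 EP and 7 in TCam-2, which was the case for 46.3% and 45.7% of the genes tested. The 9 members were picked with earlier results of these data known, and the metallothionein genes share reads and a locus, so they are not independent observations. In bulk RNA, fewer cells that express a gene and less RNA per cell cannot be told apart.

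**Figure D2:**
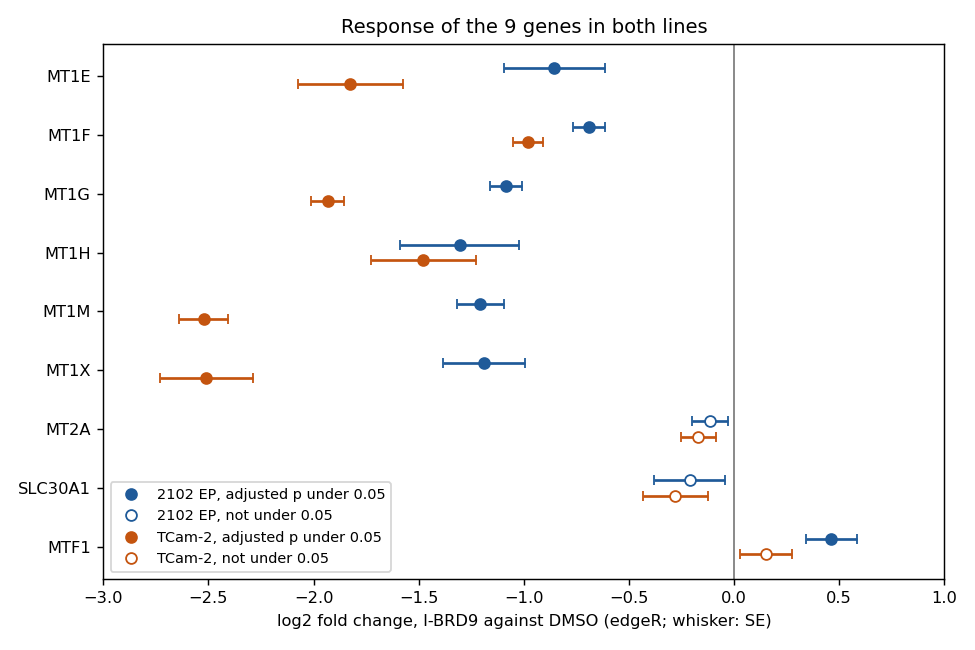
Log2 fold change of I-BRD9 against DMSO (x axis) for each gene in 2102 EP (blue) and TCam-2 (orange), with the SE as whisker and filled points for an adjusted p under 0.05. MT1M and MT1X lie near −2.5 in TCam-2 and between −1.19 and −1.21 in 2102 EP, and MT2A and SLC30A1 have open points in both lines.

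MT2A (ENSG00000125148, chromosome 16, 56608199 to 56609497, plus strand) did not follow the MT1 members. In 2102 EP its DMSO libraries held 362, 417 and 348 CPM and its I-BRD9 libraries 331, 381 and 329, and the groups overlapped. In TCam-2 the values were 1032, 1025 and 1088 CPM against 903, 950.3 and 941, where all I-BRD9 libraries were lower by a small margin. Its log2 fold change was −0.11 (95% interval −0.29 to 0.06, edgeR adjusted p = 0.314) in 2102 EP and −0.17 (−0.34 to 0.00, adjusted p = 0.13) in TCam-2. Within these intervals a fall as large as that of MT1F, the MT1 member that changed least, was not reached in either line. The 95% interval of MT1F ran from −0.84 to −0.54 in 2102 EP and from −1.13 to −0.83 in TCam-2. MT1A, an MT1 gene that is no member, was not called in 2102 EP either (log2 fold change 0.38, edgeR adjusted p = 0.169).

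The ratio of each MT1 gene to MT2A was taken within each library, which removes library scaling. It was lower in all I-BRD9 libraries than in all DMSO libraries for all 6 MT1 members in both lines. By CPM, 46.3% of all genes tested in 2102 EP and 45.7% in TCam-2 had groups that did not overlap. The like share for ratios to MT2A was not computed. The change of the log2 ratio ran from −0.58 (MT1F) to −1.34 (MT1H) in 2102 EP and from −0.81 (MT1F) to −2.39 (MT1X) in TCam-2. The value of MT1H in 2102 EP leans on I-BRD9 replicate 1. The log2 ratio was −7.34 in that library and at most −5.94 in its group (SD 0.768), and the change without it was not computed. In TCam-2 the log2 ratio of MT1G to MT2A went from −0.44 ± 0.10 (SD, n = 3) to −2.21 ± 0.01, and in 2102 EP from 0.30 ± 0.07 to −0.68 ± 0.07. A 2-sided exact permutation test of 3 against 3 libraries gives no p below 0.1, and 0.1 was its value for all 12 ratios.

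The makeup of the metallothionein counts shifted accordingly. All rows with a metallothionein name added up to 1804 ± 164 CPM (SD, n = 3) in 2102 EP with DMSO and 1102 ± 170 with I-BRD9, and to 3085 ± 23.6 and 1619 ± 42.9 in TCam-2. The total of TCam-2 with I-BRD9 was thus close to that of 2102 EP with DMSO, with the same 7 genes in other proportions. MT2A held 20.8 ± 0.753% of these counts in 2102 EP with DMSO and 31.8 ± 4.0% with I-BRD9, and 34.0 ± 0.877% and 57.5 ± 0.0777% in TCam-2. MT1E held 38.4 ± 2.68% and 34.1 ± 7.67% in 2102 EP, and 16.7 ± 0.576% and 8.99 ± 0.558% in TCam-2. MT1G went from 25 ± 1.1% to 12.5 ± 0.0807% in TCam-2, whereas the share of MT1F differed little (19.4 ± 0.634% and 18.7 ± 0.587%). These are shares of 3′ counts, which were not divided by transcript length. The 16 metallothionein rows of 16q13 were also summed to 1 row before the fit, which is untouched by reads divided among those rows. A pseudogene row named MT1JP (ENSG00000290662, at most 12.8 counts in a library) had no annotated position and was left out. This metallothionein sum was 1.64-fold lower with I-BRD9 in 2102 EP (log2 fold change −0.71, and −0.57 without I-BRD9 replicate 1). In TCam-2 it was 1.91-fold lower (−0.93).

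**Figure D3:**
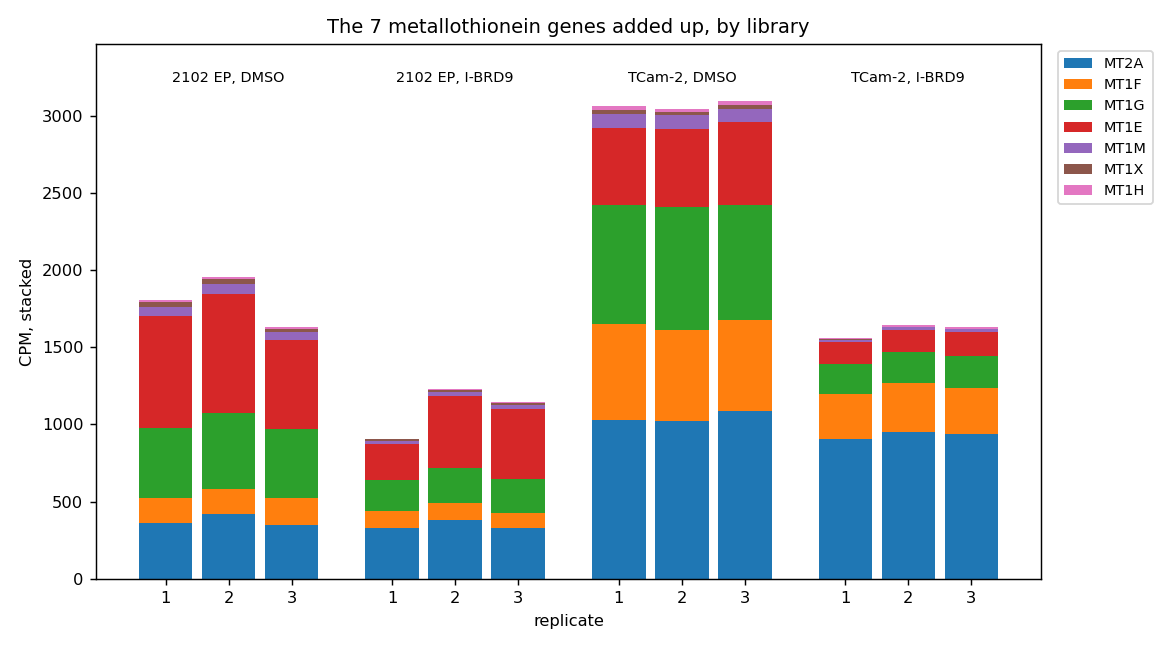
CPM of the 7 metallothionein genes stacked for each of the 12 libraries. The MT2A segment (blue, at the bottom) is of like height with DMSO and I-BRD9 within each line, while the MT1E and MT1G segments are shorter with I-BRD9, and replicate 1 is the lowest of the 2102 EP libraries with I-BRD9.

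SLC30A1 (ENSG00000170385, chromosome 1, 211571568 to 211578742, minus strand), the exporter that MTF1 induces, was not called in either line. Its 2102 EP values were 12.4, 13.4 and 12.5 CPM in the DMSO libraries and 8.73, 12.1 and 12.0 in the I-BRD9 libraries. They were 23.7, 20.9 and 29.3 CPM against 20.7, 18.6 and 21.5 in TCam-2. The groups were separated by a narrow gap in 2102 EP, and the I-BRD9 library of replicate 1 was again the lowest there, while the groups overlapped in TCam-2. The log2 fold change was −0.21 (95% interval −0.56 to 0.14, edgeR adjusted p = 0.35, and −0.06 without that library) in 2102 EP and −0.28 (−0.60 to 0.04, adjusted p = 0.178) in TCam-2.

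MTF1 (ENSG00000188786, chromosome 1, 37809567 to 37859620, minus strand), the metal-responsive factor itself, rose in 2102 EP. Its level went from 32.4, 29.4 and 35.9 CPM to 52.8, 41.0 and 41.1, with replicate 1 the highest. The log2 fold change was 0.46 ± 0.12 (edgeR adjusted p = 0.00429), and 0.35 (adjusted p = 0.0256) without I-BRD9 replicate 1. In TCam-2 it stood at 27.3, 28.7 and 28.4 CPM against 30.5, 35.0 and 28.3 with I-BRD9, and the groups overlapped (0.15, 95% interval −0.10 to 0.41, adjusted p = 0.387). The level of a transcript does not tell how active the MTF1 protein was, since zinc acts on the protein.

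Whether the effect of I-BRD9 differed between the lines was tested as a difference of log2 fold changes, TCam-2 minus 2102 EP. It was called for 3 of the 9 members, all of which fell further in TCam-2, and 13.1% of all genes tested were called (7.19% in that direction and 5.9% in the other). The difference was −1.32 ± 0.29 for MT1X (edgeR adjusted p = 0.00369), −1.31 ± 0.16 for MT1M (adjusted p = 3.97e-06) and −0.85 ± 0.11 for MT1G (adjusted p = 5.62e-06). MT1E had a difference of −0.97 ± 0.34 that was not called (adjusted p = 0.109), and without the uneven I-BRD9 replicate 1 of 2102 EP it was −1.25 (adjusted p = 8.33e-08). MT1F (−0.29 ± 0.10, adjusted p = 0.0651) was not called either, and was called without I-BRD9 replicate 3 of 2102 EP (−0.34, adjusted p = 0.0424). DESeq2 called both MT1E (adjusted p = 0.0456) and MT1F (0.0498), which made 5 members, and limma voom called MT1E (0.0361). The difference was −0.17 ± 0.38 for MT1H, −0.06 ± 0.12 for MT2A, −0.07 ± 0.23 for SLC30A1 and −0.31 ± 0.17 for MTF1, none of them called. The difference of MTF1, called in 2102 EP only, was thus not shown to part the lines (adjusted p = 0.267).

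With DMSO the lines themselves differed in 6 of the 9 members, all higher in TCam-2, where 62.6% of all genes tested were called (31.7% higher and 30.8% lower). Libraries of the lines did not overlap for 8 members, as for 67.6% of all genes tested. MT1F was 3.53-fold higher in TCam-2 (598 ± 19.1 against 169 ± 7.42 CPM, SD, n = 3, log2 fold change 1.82 ± 0.07), and MT2A 2.79-fold (1048 ± 34.5 against 376 ± 36.6, 1.48 ± 0.09). MT1H was 2.41-fold, SLC30A1 1.92-fold, MT1G 1.67-fold and MT1M 1.5-fold higher, with edgeR adjusted p-values of at most 0.000255. MT1E, MT1X and MTF1 were lower in TCam-2 by values that were not called (−0.43, −0.33 and −0.21 on the log2 scale). MT1E (adjusted p = 0.000179) and MT1X (0.0316) were called lower in a fit on the 6 DMSO libraries alone, and MT1X (0.0495) without DMSO replicate 3 of 2102 EP. The members called in the main fit thus all went the same way, and calls in the other direction came from other fits only.

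With I-BRD9, 4 members were higher in TCam-2 and 4 were lower, where 62.2% of all genes tested were called (31.1% higher and 31.1% lower), and 8 did not overlap (66.3% of all genes tested). MT1F (1.53 ± 0.07), MT2A (1.42 ± 0.09), MT1H (1.10 ± 0.28) and SLC30A1 (0.88 ± 0.16) were higher on the log2 scale, and MT1X (−1.65 ± 0.23), MT1E (−1.40 ± 0.25), MT1M (−0.73 ± 0.12) and MTF1 (−0.52 ± 0.12) were lower, with edgeR adjusted p-values of at most 0.00288. MT1G was not called (−0.11 ± 0.08, adjusted p = 0.233), and its levels of 217 ± 13.1 and 202 ± 5.93 CPM overlapped. MT1M was thus higher in TCam-2 with DMSO and lower with I-BRD9. These comparisons share libraries with those of I-BRD9 against DMSO.

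Ordered over the 4 groups, MT1F, MT2A and SLC30A1 were lowest in 2102 EP with I-BRD9, then 2102 EP with DMSO, TCam-2 with I-BRD9 and TCam-2 with DMSO. Within that order the libraries of neighbouring groups overlapped for MT2A in 2102 EP and for SLC30A1 in TCam-2, and for MT1F they did not. MT1G and MT1M were lowest in TCam-2 with I-BRD9, then 2102 EP with I-BRD9, 2102 EP with DMSO and TCam-2 with DMSO, and only the I-BRD9 groups of MT1G overlapped. MT1E and MT1X were also lowest in TCam-2 with I-BRD9, but highest in 2102 EP with DMSO, and only the DMSO groups of MT1X overlapped. MT1H was lowest in 2102 EP with I-BRD9 and highest in TCam-2 with DMSO, and the middle groups, TCam-2 with I-BRD9 and 2102 EP with DMSO, overlapped. MTF1 had the reverse of the order of MT1F, from TCam-2 with DMSO up to 2102 EP with I-BRD9. Only the 2102 EP groups of MTF1 did not overlap as neighbours. Over all genes tested, groups did not overlap for 45.7% to 67.6% in the comparisons of groups above.

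The 7 metallothionein members lie within 76 kb of chromosome 16 (56608199 to 56684196), with MT2A at the end nearest the centromere and MT1X at the other. The MT1 members between 17.3 and 74.2 kb from the start of MT2A fell in both lines, whereas MT1A, an MT1 gene between them (30.5 kb) that is no member, stood at 4.93 ± 0.864 CPM (SD, n = 3) in DMSO and 6.40 ± 1.10 in I-BRD9 libraries of 2102 EP (0.38 ± 0.21, edgeR adjusted p = 0.169). In TCam-2 MT1A fell from 15.2 ± 0.914 to 8.74 ± 1.49 CPM (−0.79 ± 0.19, adjusted p = 0.00226). Its effect differed between the lines (−1.17 ± 0.28, adjusted p = 0.00657). MT3, 19.1 kb before MT2A, did not pass the low-count filter: it had 6 counts over the 3 DMSO libraries and 23 over the 3 I-BRD9 libraries of 2102 EP, and 2 and 0 in TCam-2. MT4 had no count in any library.

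Of 16 tested protein-coding neighbours of the cluster, 2 rose and 5 fell in 2102 EP (median log2 fold change −0.11) and 3 rose and 3 fell in TCam-2 (median −0.09). These counts are near the 36.8% and 31.8% of all genes tested that were called in the same comparisons, and so are no result about the neighbours. The nearest tested gene beyond MT1X is NUP93, a nuclear pore gene 121.9 kb from the start of MT2A, which fell in 2102 EP (−0.42 ± 0.09, edgeR adjusted p = 0.000539). The largest neighbour changes past the threshold were those of PLLP, at −1.30 ± 0.29 in 2102 EP and −1.74 ± 0.33 in TCam-2, and GNAO1, a G protein subunit gene, at 1.19 ± 0.25 and 1.20 ± 0.21. ARL2BP rose in 2102 EP (0.88 ± 0.14) and CPNE2 in TCam-2 (from 4.38 to 9.53 CPM, adjusted p = 0.00568).

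**Figure D4:**
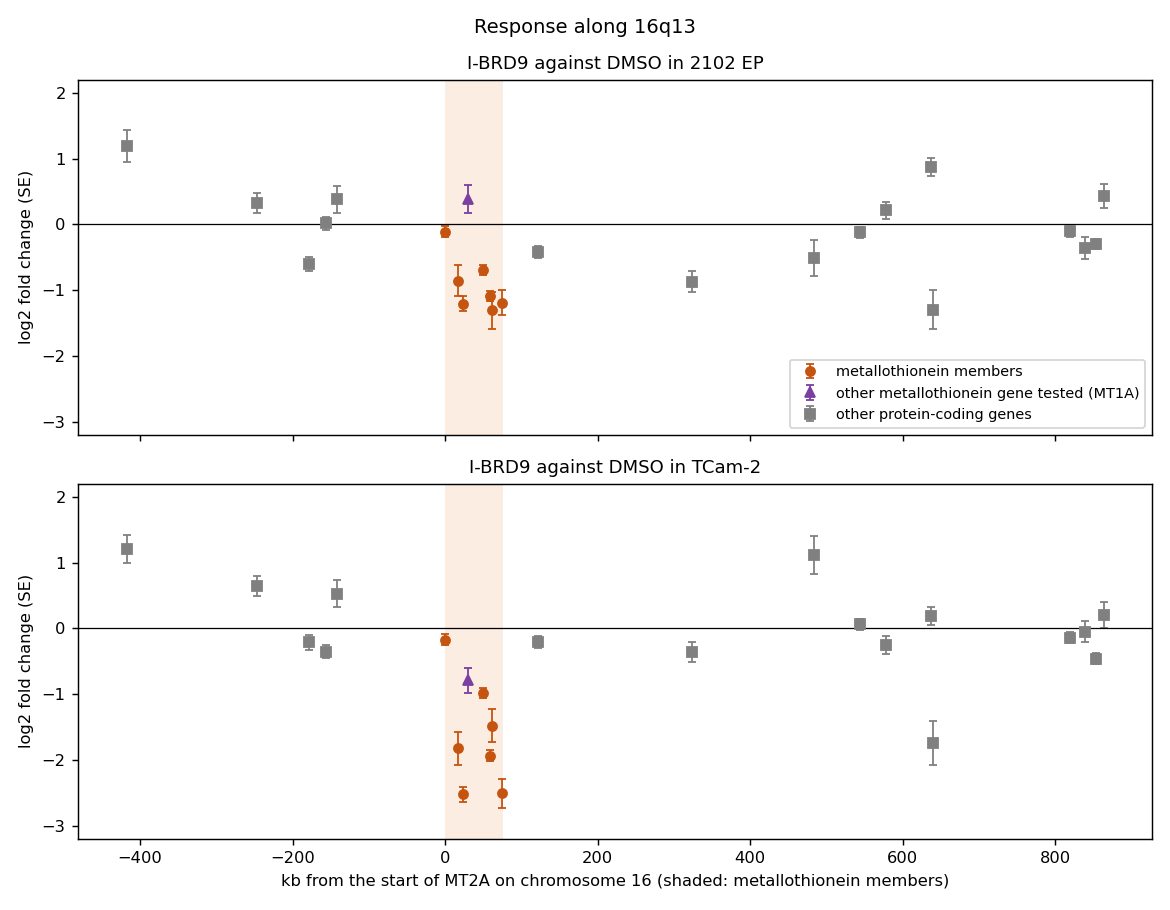
Log2 fold change of I-BRD9 against DMSO (y axis, whisker SE) against the distance in kb from the start of MT2A on chromosome 16, for 2102 EP (top) and TCam-2 (bottom). The MT1 members (circles in the shaded span) lie below 0 in both lines, MT2A at 0 kb is near 0, MT1A (triangle) is above 0 in 2102 EP and below it in TCam-2, and the other genes (squares) lie on both sides.

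Zinc transporters set the zinc level of a cell together with metallothioneins. The counts of calls in the gene lists that follow stand beside 36.8% of all genes tested in 2102 EP (18.2% higher, 18.6% lower) and 31.8% in TCam-2 (15.3% higher, 16.5% lower). Most, but not all, SLC30 transporters move zinc out of the cytosol. Of 9 tested SLC30 genes 2 rose and none fell in 2102 EP (median log2 fold change 0.21). In TCam-2, 2 rose and 1 fell (median −0.19). The 2102 EP calls were those of SLC30A2 (from 1.63 to 3.56 CPM, edgeR adjusted p = 0.0414) and SLC30A4 (from 0.163 to 0.778 CPM, adjusted p = 0.0372), both at low levels. None of the list was called without DMSO replicate 1, I-BRD9 replicate 1 or I-BRD9 replicate 3 of 2102 EP, and 1 was called without DMSO replicate 2 or I-BRD9 replicate 2. In TCam-2 SLC30A2 fell from 1.53 ± 0.594 to 0.225 ± 0.124 CPM (−2.69 ± 0.60, adjusted p = 0.0013), SLC30A4 rose (1.80 ± 0.48) and SLC30A9, a more abundant member, rose from 44.8 ± 5.19 to 65.1 ± 4.12 CPM (0.54 ± 0.11).

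Of 11 tested SLC39 genes, which bring zinc into the cytosol, 1 rose and 4 fell in 2102 EP (median log2 fold change −0.31) and 3 rose and 4 fell in TCam-2 (median −0.10). SLC39A10, a plasma membrane importer, fell in both, from 66.8 ± 2.2 to 46.5 ± 2.74 CPM in 2102 EP (−0.52 ± 0.10, edgeR adjusted p = 0.000318) and from 116 ± 11 to 53.4 ± 7.05 CPM in TCam-2 (−1.11 ± 0.10, adjusted p = 1.14e-08). Its fall was larger in TCam-2 (difference −0.59 ± 0.14, adjusted p = 0.00662). SLC39A1, another importer of the family, fell in both as well (−0.62 ± 0.08 and −0.41 ± 0.08). SLC39A4, the intestinal importer mutated in acrodermatitis enteropathica, fell in 2102 EP (−0.56 ± 0.14). In TCam-2 SLC39A8 fell (−1.34 ± 0.25) and SLC39A13 rose (0.86 ± 0.20). SLC39A14 fell there (−0.39 ± 0.14, adjusted p = 0.0465), a call lost with a block of replicate numbers (0.0668), and SLC39A11 rose in both lines (0.63 ± 0.15 and 0.42 ± 0.12), a call lost in TCam-2 without DMSO replicate 1 (adjusted p = 0.0572).

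**Figure D5:**
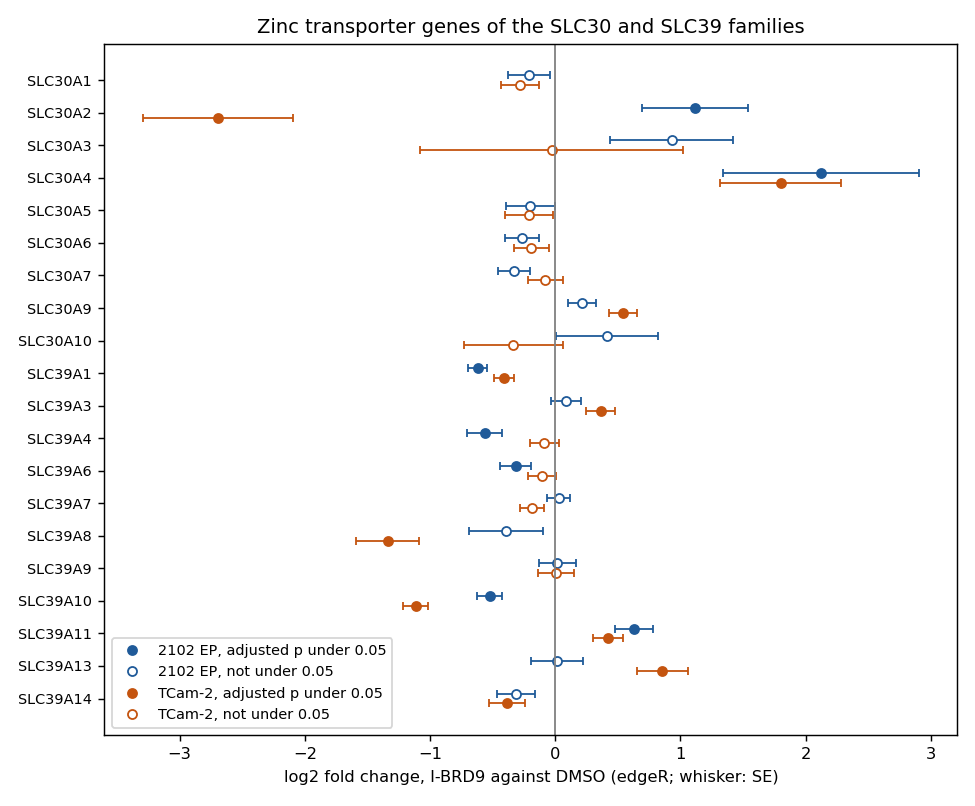
Log2 fold change of I-BRD9 against DMSO (x axis, whisker SE) for the 20 tested SLC30 and SLC39 genes in 2102 EP (blue) and TCam-2 (orange), with filled points for an adjusted p under 0.05. SLC39A10 and SLC39A1 have filled points below 0 in both lines, and SLC30A2 lies on opposite sides of 0.

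Genes reported elsewhere as targets of MTF1, other than metallothioneins, changed in both directions. The list holds SLC30A1, which MTF1 induces, and SLC39A10, which it represses, so its counts and medians do not measure MTF1 activity. Of 8 such genes 1 rose and 1 fell in 2102 EP (median log2 fold change 0.09) and 2 rose and 3 fell in TCam-2 (median −0.24). In 2102 EP these were NDRG1 (1.40 ± 0.25, with counts divided between genes in all 12 libraries) and SLC39A10, a gene that MTF1 represses. In TCam-2 the largest changes past the threshold were those of PGF, a placental growth factor gene (−1.71 ± 0.56, adjusted p = 0.0213, and 0.0566 with a block of replicate numbers), SLC39A10 and CSRP1 (−0.99 ± 0.31). GCLC, a glutathione synthesis gene, rose there from 17.6 to 28.2 CPM (0.67 ± 0.15, edgeR adjusted p = 0.00138). The TCam-2 count of 5 calls became 3 without DMSO replicate 1 or I-BRD9 replicate 2 and 2 without I-BRD9 replicate 1.

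Of 13 copper handling genes 2 rose and 1 fell in each line (median log2 fold change 0.12 in 2102 EP and 0.21 in TCam-2), a smaller share than the 36.8% and 31.8% of all genes tested. ATOX1, a copper chaperone gene, rose in both, from 83.1 ± 0.681 to 135 CPM in 2102 EP (0.70 ± 0.08, edgeR adjusted p = 4.68e-07) and from 88.0 to 120.1 CPM in TCam-2 (0.45 ± 0.08, adjusted p = 0.000146). SCO2 rose in 2102 EP (0.60 ± 0.13) and SOD1, the copper-zinc superoxide dismutase gene, in TCam-2 (0.25 ± 0.07). SCO1, a mitochondrial copper protein gene, fell in 2102 EP (−0.51 ± 0.09) and in TCam-2 (−0.34 ± 0.11), where the call was lost without DMSO replicate 1 or 2 or without I-BRD9 replicate 1 or 3 (adjusted p of 0.0601 to 0.0912), and the TCam-2 count of calls was 1 without DMSO replicate 2.

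Glucocorticoids also induce metallothionein genes, through the receptor encoded by NR3C1. Of 9 tested genes of a list of the receptor and its targets 3 rose and 3 fell in 2102 EP (median log2 fold change 0.11), and 2 rose and 3 fell in TCam-2 (median −0.08). SGK1, a kinase gene induced by glucocorticoids, fell from 51.6 to 17.2 CPM in 2102 EP (−1.59 ± 0.11, edgeR adjusted p = 1.32e-10) and from 178 to 67.2 CPM in TCam-2 (−1.41 ± 0.10, adjusted p = 1.11e-10), and DUSP1 rose in both (1.62 ± 0.24 and 2.47 ± 0.23). ERRFI1 (−1.37 ± 0.19) and TSC22D3 (−1.26 ± 0.16) fell in 2102 EP. NR3C1 itself had 21.1 and 22.7 CPM in 2102 EP and fell in TCam-2 from 71.7 to 40.2 CPM (−0.83 ± 0.12, adjusted p = 9.22e-06), and FKBP5, another induced gene, rose there (1.31 ± 0.25). The counts of the list include TFCP2L1, which is better known as a pluripotency gene and which rose in 2102 EP (0.35 ± 0.10) and fell in TCam-2 (−0.62 ± 0.10).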

How the data were processed

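The authors deposited estimated counts for each gene in 12 libraries, from Salmon 1.9.0 per the submitters' processing notes, which also list Trim Galore, STAR 2.7.11b, R 4.2.0, DESeq2 and GRCh38. Not given in the sources used here are the annotation, the order of steps and any use of strand. Counts were rounded, filtered (filterByExpr, 15614 of 63241 genes), scaled by TMM and modelled in edgeR 4.0.16 under R 4.3.3 (glmQLFit, robust, 4 group means, 8 residual degrees of freedom, common biological coefficient of variation 0.127). P-values were adjusted over all tested genes by Benjamini and Hochberg, with calls under 0.05. The SE of a log2 fold change is its size divided by the root of the F statistic. Alternatives used DESeq2 1.42.0, limma 3.58.1 (voom), other scalings, no filter, blocks, fits on the groups compared and libraries left out. The scripts were tested on simulated data. Depth was 7290335 to 10053366 counts per library. Intervals are 95% intervals of the model.

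The members and the lists of other genes were chosen with earlier results of these data known. Named are all members, other metallothionein rows, up to 3 genes per list and line with the largest change past the threshold, and, by Pearson r of log2 CPM (prior count 2), 5 genes most like MT1X, MT2A and SLC30A1. GCLC, NR3C1, NUP93, SLC39A14, TSC22D3 and TFCP2L1 fall outside this rule and were chosen after their values were seen. Coordinates are those of GENCODE release 29 (GRCh38), which holds 58228 of the 63241 identifiers (92.1%). In TCam-2, libraries of the same replicate number deviated together (r of 0.219, 0.216 and 0.337), so the block of replicate numbers applies there, and it changed no call of a member. The labels do not say how replicate cultures were kept apart, so p-values measure the spread between these libraries.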

Additional observations from a re-analysis of the deposited data

Results flagged for a closer look

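The effect of I-BRD9 differed between the lines, by a test of the difference of log2 fold changes, for 3 of the 9 members. Of all genes tested 13.1% were called in that test, 7.19% in the direction of these members. The value, TCam-2 minus 2102 EP, was −1.32 for MT1X, −1.31 for MT1M and −0.849 for MT1G, with edgeR adjusted p-values of 0.00369, 3.97e-06 and 5.62e-06. All 3 had an adjusted p under 0.05 in each of the 19 alternatives run, in which MT1X ranged from −1.54 to −1.13, MT1M from −1.43 to −1.25 and MT1G from −0.92 to −0.81. MT1M and MT1G have counts divided between genes in most libraries, and the part of that division in these values was not tested.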

How the results depend on the processing

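Over 5 comparisons and 9 members, 657 values were recomputed under other settings, and 641 kept their direction and their side of the threshold, while 8 passed it, 4 no longer did and 4 changed direction. The number of members called for the difference between the lines was 5 with DESeq2 (3 as reported), where 2050 of 15614 genes were called, and 3 to 4 with a library left out. It ranged from 6 to 7 in 2102 EP (7 as reported), was 6 throughout in TCam-2, ranged from 6 to 7 between the lines with DMSO (6) and was 8 with I-BRD9 (8) when libraries were left out in turn. Those fits tested 16096 to 16145 genes. They called 1652 to 2006 genes for the difference, 4743 to 5321 in 2102 EP and 4150 to 4350 in TCam-2. Between the lines they called 9170 to 9345 genes with DMSO and 9169 to 9573 with I-BRD9. The 4 reversed values were differences between the lines near 0 and not called. Over the 19 alternatives MT1H ranged from −0.498 to 0.0452, MT2A from −0.142 to 0.0106 and SLC30A1 from −0.223 to 0.0649. With a replicate block the called members numbered 7 (2102 EP), 6 (TCam-2), 3 (difference), 6 (lines with DMSO) and 8 (lines with I-BRD9), the counts reported. Of the 15614 genes tested, 5487, 4661, 1782, 9598 and 9574 were called with that block, in the same order. In 2102 EP same-numbered libraries shared only a number (r of −0.22, 0.257 and −0.165, with 2 of 6 libraries correlating best with their own number), and the block took the genes called from 5739 to 5487. The metallothionein sum without I-BRD9 replicate 1 of 2102 EP gave log2 values of −0.57 for that line, −0.36 for the difference (−0.22 with it) and 0.42 between the lines with I-BRD9 (0.56). The median of all genes moved by less than 0.1 on the log2 scale under every scaling. In a single library 3 counts are 0.297 to 0.409 CPM, and MT3 and most pseudogenes had few counts, which limits what depth can show of them.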

Other observations

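Outside the main metallothionein genes, 2 rows carry the name MT1JP, a pseudogene of the cluster. One of them (ENSG00000290662) had 24.6 estimated counts over the 3 DMSO libraries and 15.5 over the 3 I-BRD9 libraries of 2102 EP, and 27.7 and 3.97 in TCam-2, with fractional values in 10 of 12 libraries, and the other had none. The first passed the threshold in TCam-2 (log2 fold change −2.73 ± 0.93, edgeR adjusted p = 0.028) and not in 2102 EP (adjusted p = 0.49). MT2P1 had 1 count over all 12 libraries, MT1P3 and MT1XP1 had 3 each, MT1B had 5, and MT1L, MT1CP, MT1DP, MT1IP, MT1P1 and MT1HL1 had none.

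Across the 12 libraries the levels most like that of MT1X (log2 CPM, Pearson r among 8521 genes of at least 10 CPM) were those of CCNE1, the cyclin E1 gene (0.975), VASH2 (0.971), ARPC5L (0.968), UTP4 (0.966) and PPIF (0.965). Those most like MT2A were SAR1A (0.996), PRAME (0.996), UBE2L3 (0.994), TMEM87B (0.994) and IGF1 (0.994), and those most like SLC30A1 were RPS21 (0.983), ITFG1 (0.982), PDCD5 (0.980), NDUFB6 (0.976) and EEF1B2 (0.975). The libraries fall into 4 groups, so these values mostly compare group levels and are given as a description.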
